A study of Mus musculus with 12 samples.

Results

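Macroautophagy encloses cytoplasmic material in a membrane sac that closes into an autophagosome and then fuses with the lysosome. The 42 genes described here encode the core of this machinery, from the Ulk kinases that start it to the SNARE proteins that fuse the closed vesicle with the lysosome. They were picked by gene symbol from the 45906 genes in the table of spinal cord transcripts, and the rule that picked them uses no measured value, although it was set with earlier results of these data known. All 42 were found in the table, and all 42 passed the filter on low counts that left 20155 genes to be tested.

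Whole spinal cord RNA was sequenced from 12 mice at 7 months of age, with 3 mice in each of 4 genotypes. Plekhg5+/+ mice carried intact Plekhg5 and no transgene, and Plekhg5-/- mice lacked Plekhg5 throughout the body. Plekhg5+/+ SOD1-G93A mice carried a human SOD1 transgene with a substitution that causes familial amyotrophic lateral sclerosis (ALS), and Plekhg5-/- SOD1-G93A mice combined this transgene with the loss of Plekhg5. The transgenic mice belonged to a line with a low copy number of the transgene, all animals had a C57BL/6 background, and the sexes were not separated. Plekhg5 activates the small GTPase Rab26 and promotes autophagosome formation at the presynapse, so the comparisons ask whether its loss, with or without mutant SOD1, came with a different level of the transcripts of the autophagy machinery itself.

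The steps of autophagosome formation follow each other in a fixed order. The Ulk complex passes the starting signal to the class III PI3 kinase complex, which marks the membrane with the lipid PI3P. Proteins that bind PI3P, together with Atg9 vesicles and Atg2 lipid transfer proteins, then let the membrane grow, while 2 ubiquitin-like conjugation systems attach Atg8 proteins (LC3 and GABARAP) to it. Cargo receptors bind both the cargo and the Atg8 proteins, and SNARE and tethering proteins finally bring the closed vesicle to the lysosome. In neurons, autophagosomes form mainly in distal axons and travel back to the soma, and variants of the cargo receptors SQSTM1 and OPTN and of the kinase TBK1 occur in ALS. Much of autophagy is controlled by protein modification and turnover, which transcript counts do not measure.

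The libraries held between 30415643 and 38743628 counts. Plekhg5 was at 19.4, 24.5 and 25.0 CPM (counts scaled to library size with TMM) in Plekhg5+/+, 3.28, 3.98 and 4.70 in Plekhg5-/-, 21.5, 24.9 and 20.9 in Plekhg5+/+ SOD1-G93A and 4.72, 3.92 and 4.14 in Plekhg5-/- SOD1-G93A mice, and human SOD1 was between 4421 and 5638 CPM in the transgenic libraries and at most 5.47 CPM in the others, so every library matched its labelled genotype. The first Plekhg5+/+, the first Plekhg5-/- and the third Plekhg5+/+ SOD1-G93A library stood apart from the other 9. Their short transcripts were high and their long transcripts low relative to the genotype mean, with a Spearman correlation of this deviation with exon length of -0.53, -0.56 and -0.48 across 16609 genes. In the other libraries this correlation lay between -0.08 and 0.52. Each genotype mean is that of the same 3 libraries, so a strongly negative library pushes its partners toward positive values. Y-linked transcripts were present in 3 Plekhg5+/+, 2 Plekhg5-/-, 2 Plekhg5+/+ SOD1-G93A and 1 Plekhg5-/- SOD1-G93A libraries. Neuronal, motoneuron, astrocyte, oligodendrocyte, microglial and endothelial markers were all present with counts for each marker.

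Levels of different genes were compared only per transcript length, as TPM (counts scaled by exon length and library size). Mean levels over the 12 libraries ranged from 7.16 TPM for Atg4a to 815 TPM for Gabarapl1, with a median of 45.6 TPM over the 42 genes. Of all genes tested, 77.7% had a mean level under this median. The Atg8 proteins that coat the autophagosome and the cargo receptor Sqstm1 had the most abundant transcripts: Gabarapl1 was first at 815 ± 21.1 TPM (mean ± SD, n = 12), followed by Sqstm1 at 679 ± 20.3 TPM and Gabarap at 395 ± 22.7 TPM. Next came Map1lc3a at 338 ± 17.9, Gabarapl2 at 316 ± 21.8 and Map1lc3b at 292 ± 9.04 TPM. The libraries of Gabarapl1 did not overlap with those of Sqstm1, nor those of Sqstm1 with those of Gabarap, whereas the ranges of each neighbouring pair from Gabarap down to Map1lc3b overlapped. All other genes were at 150 TPM or less on average. Becn1, at 119.7 ± 5.79 TPM, led the class III PI3 kinase complex and Atg3, at 85.8 ± 2.73 TPM, the conjugation enzymes. The rarest transcripts were those of the proteases Atg4a and Atg4c and of the conjugating enzyme Atg10, at 7.16 ± 0.535, 12.2 ± 0.858 and 7.87 ± 0.669 TPM, and the deposited counts of single genes per library ranged from 186.5 to 17948.

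**Figure D1:**
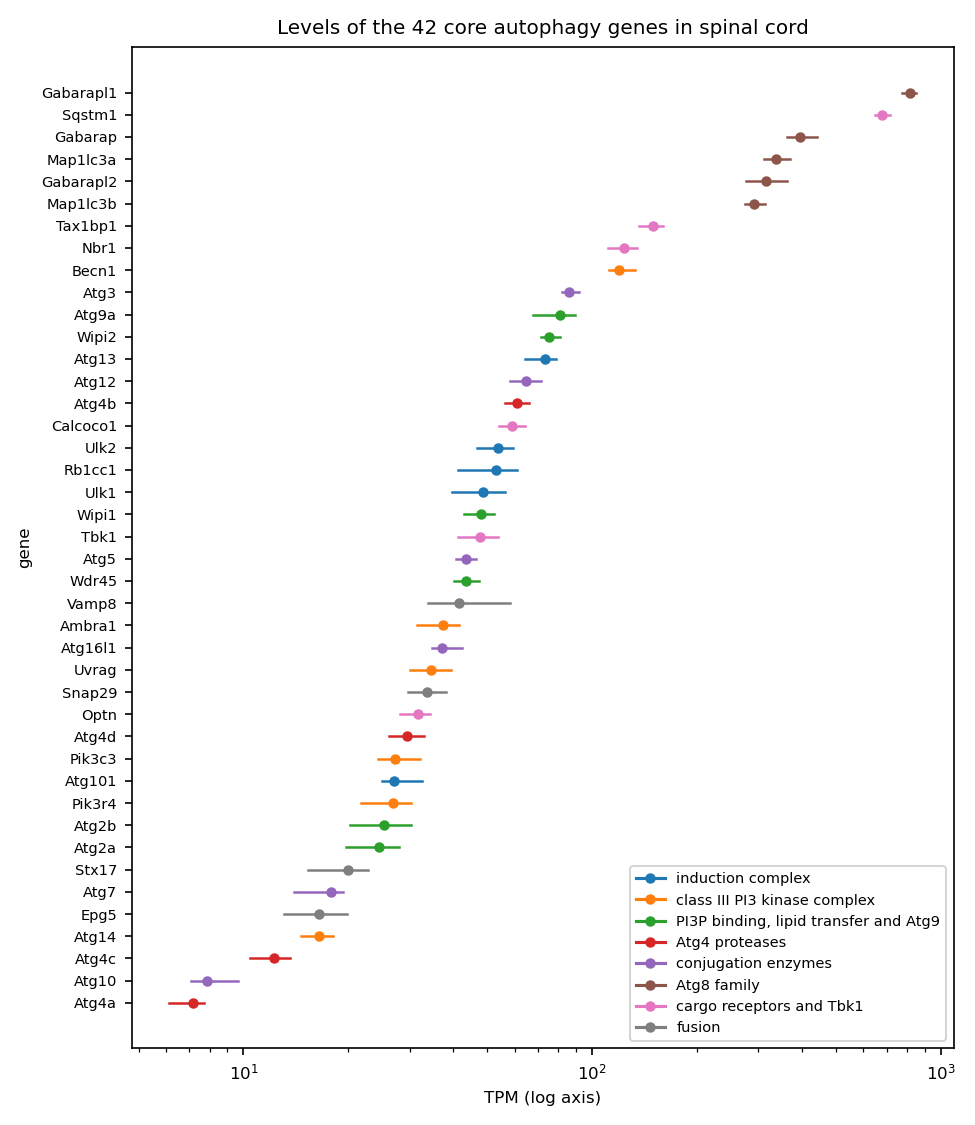
Level of each of the 42 genes in TPM (log axis): points are means over the 12 libraries, lines run from the lowest to the highest library, and colours give the role. The 5 Atg8 genes and Sqstm1 form the upper end, from 292 to 815 TPM, and Atg4a and Atg10 the lower end.

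The levels of these genes varied little between the 12 mice. The highest library of a gene was between 1.07 and 1.79 times its lowest, with a median of 1.22, and it was under 1.5 times the lowest for 41 of the 42 genes. Wipi2, which recruits the conjugation machinery to PI3P, had the smallest range, from 100.3 to 107 CPM. Vamp8, a SNARE protein, was the only gene above a ratio of 1.5.

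The presence of SOD1-G93A in mice with intact Plekhg5 was accompanied by a called change of 1 of the 42 genes in edgeR's test. Vamp8 rose, and no other member passed the threshold of an adjusted p under 0.05 (edgeR's quasi-likelihood test, Benjamini-Hochberg adjustment over 20155 genes), with Tbk1 just above it. Over all genes tested, 2.47% passed in edgeR's test, so that 1 of 42 was close to the background. The count depended on the tool: DESeq2 without a prior called both Vamp8 (higher, adjusted p = 0.00113) and Tbk1 (lower, adjusted p = 0.00592). At an unadjusted p under 0.05 stood 7 of the 42 genes, against 18.2% of all genes, and the 3 libraries of each genotype did not overlap for 7 of the 42 genes, against 20.6% of all genes. The log2 fold change was positive for 16 and negative for 26 genes, with a median of -0.05, beside a median of 0.00 over all genes tested. The median size of the log2 fold change, regardless of sign, was 0.07 for the 42 genes and 0.13 for all genes.

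Loss of Plekhg5 in SOD1-G93A mice was accompanied by no called change: 0 of the 42 genes passed in edgeR's test, where 0.0347% of all genes did, and 0 passed in DESeq2. At an unadjusted p under 0.05 there were 3 of the 42 (Vamp8, Tbk1 and Ulk1), against 8.64% of all genes. The libraries of the 2 genotypes did not overlap for 9 of the 42 genes, against 19.5% of all genes. The median log2 fold change was 0.03, with 25 genes positive, and -0.01 over all genes. This comparison and the one before it share the 3 Plekhg5+/+ SOD1-G93A libraries, so that opposite signs in them are not independent of each other.

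In mice without the transgene, loss of Plekhg5 came with 0 called genes among the 42 in edgeR's test, against 0.0298% of all genes, and with 0 in DESeq2. At an unadjusted p under 0.05, Atg4d and Atg7 made 2 of the 42, against 5.32% of all genes, and the same 2 genes had libraries that did not overlap, against 8.71% of all genes. The median log2 fold change was 0.01 for the 42 genes and 0.01 for all genes.

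SOD1-G93A in mice without Plekhg5 gave 0 called genes among the 42 in edgeR's test and 0 in DESeq2, where the transgene itself made up the 0.00496% of all genes called by edgeR. At an unadjusted p under 0.05 there were 0 of the 42, against 5.38% of all genes, and Atg16l1 was the 1 gene of the 42 whose libraries did not overlap, against 12.5% of all genes. The median log2 fold change was -0.01 for the 42 genes and 0.00 for all genes. The interaction, which asks whether the effect of SOD1-G93A differed between mice with and without Plekhg5, gave 0 called genes among the 42, against 0% of all genes in edgeR's test, and 0 of the 42 in DESeq2. At an unadjusted p under 0.05 there were 2 of the 42, Vamp8 and Tbk1, against 9.05% of all genes.

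**Figure D2:**
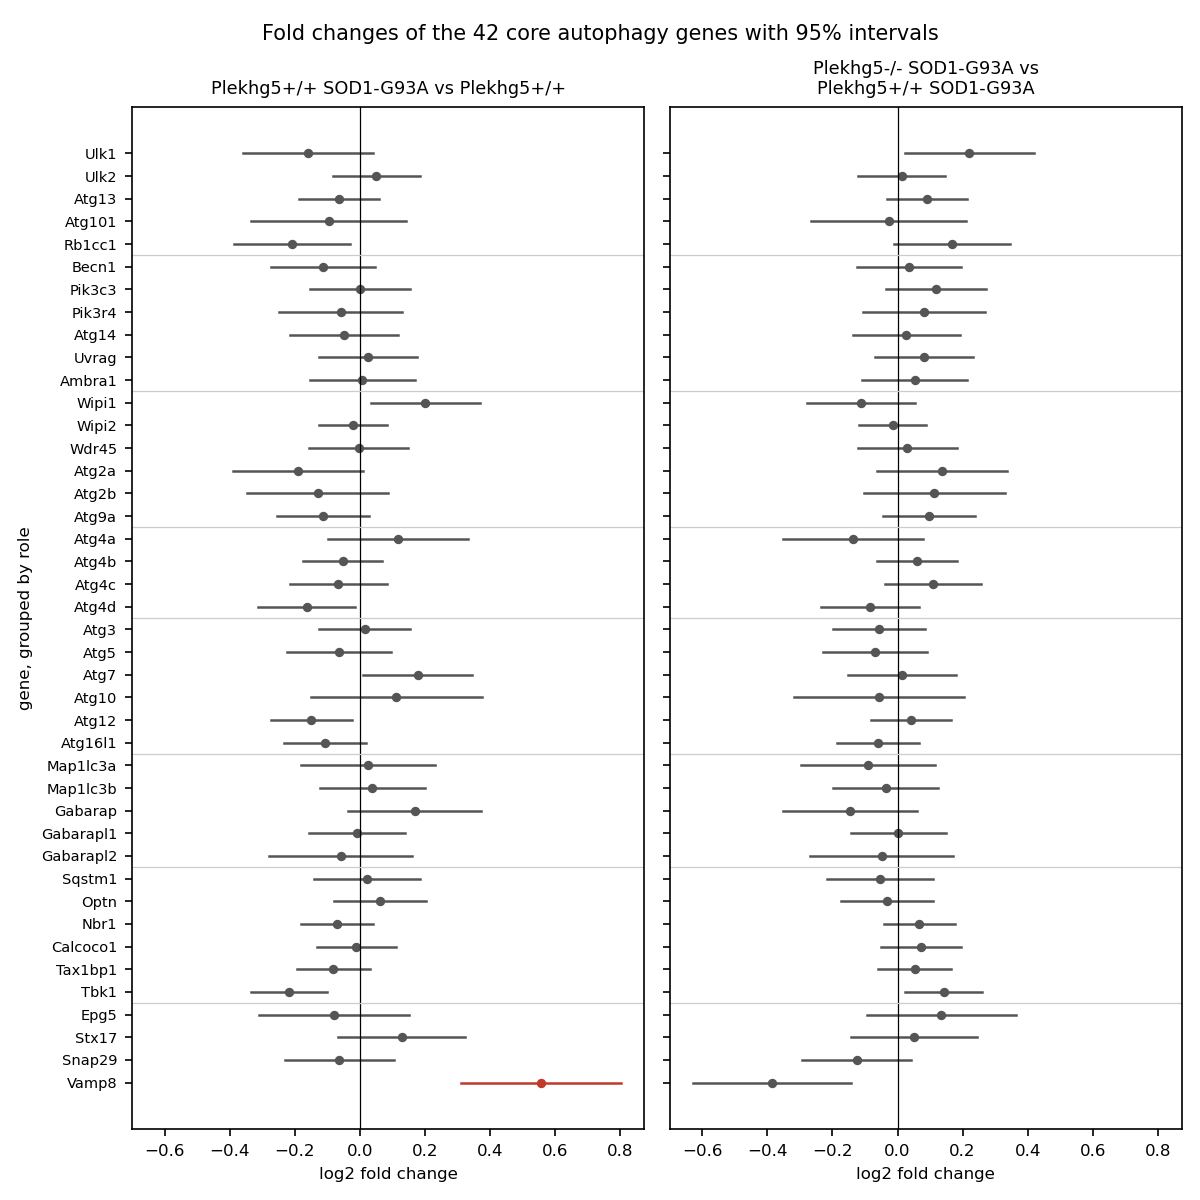
Log2 fold changes of the 42 genes, grouped by role from the induction complex at the top to fusion at the bottom, with 95% intervals from edgeR's fit, for SOD1-G93A in mice with Plekhg5 (left) and for loss of Plekhg5 in SOD1-G93A mice (right). The called gene, Vamp8 on the left at 0.56, is in red, and all other points on the left lie between -0.22 and 0.20.

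The intervals set a limit on changes in the whole-cord average that could have been missed. A change confined to some cells, such as motoneurons, is diluted in whole tissue and is not limited by them. The 95% interval of the log2 fold change, not adjusted for the number of genes, lay within ±0.5 for 41 of the 42 genes in each comparison of SOD1-G93A mice with intact Plekhg5 (against Plekhg5+/+ and against Plekhg5-/- SOD1-G93A), with Vamp8 as the exception both times. It lay within ±0.5 for 42 of the 42 genes in each comparison among the remaining pairs of genotypes, and for 40 of the 42 in the interaction. Within the narrower band of ±0.25 lay 23, 24, 27 and 34 genes in the 4 comparisons, in the order given above, and 11 in the interaction.

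The induction complex consists of the kinases Ulk1 and Ulk2 with Atg13, Atg101 and the scaffold Rb1cc1 (FIP200), and 0 of its 5 genes passed the test in any of the 5 comparisons. Rb1cc1 had 128, 135 and 144 CPM in Plekhg5+/+, 118, 129 and 140.1 in Plekhg5-/-, 118, 128 and 106 in Plekhg5+/+ SOD1-G93A and 126, 135 and 134 in Plekhg5-/- SOD1-G93A mice. The third Plekhg5+/+ SOD1-G93A library was the lowest of the 12, and the Plekhg5+/+ and Plekhg5+/+ SOD1-G93A groups overlapped. Rb1cc1 had a log2 fold change of -0.21 ± 0.08 (SE, adjusted p = 0.198, edgeR) between these groups, and a log2 fold change of 0.17 ± 0.08 (SE, adjusted p = 0.586, edgeR) for loss of Plekhg5 in SOD1-G93A mice. Without the third Plekhg5+/+ SOD1-G93A library the Rb1cc1 values were -0.14 and 0.098, and without the second -0.30 and 0.25. Ulk1, the kinase that mTORC1 and AMPK regulate, was at 78.8, 97.6 and 95.2 CPM in Plekhg5+/+, 85.1, 94.7 and 99.5 in Plekhg5-/-, 74.7, 89.5 and 79.1 in Plekhg5+/+ SOD1-G93A and 97.6, 91.1 and 94.7 in Plekhg5-/- SOD1-G93A mice. All 3 Plekhg5-/- SOD1-G93A libraries were above the 3 Plekhg5+/+ SOD1-G93A libraries, but inside the range of the non-transgenic ones. Ulk1 had a log2 fold change of 0.22 ± 0.09 (SE, adjusted p = 0.538, edgeR) for loss of Plekhg5 in SOD1-G93A mice. For SOD1-G93A in mice with Plekhg5, 4 of the 5 genes had a negative log2 fold change, with a median of -0.10, and for loss of Plekhg5 in SOD1-G93A mice 4 of the 5 were positive, with a median of 0.09.

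Of the 6 genes of the class III PI3 kinase complex, 0 passed in any comparison. Pik3c3 (Vps34) is the lipid kinase, Pik3r4 (Vps15) its regulatory subunit, Becn1 the scaffold, Atg14 and Uvrag the subunits that define its separate forms, and Ambra1 a regulator that binds Becn1. Pik3c3 was at 68.6, 62.3 and 66.03 CPM in Plekhg5+/+, 64.1, 63.5 and 76.0 in Plekhg5-/-, 65.4, 67.7 and 64.1 in Plekhg5+/+ SOD1-G93A and 73.0, 70.8 and 70.2 in Plekhg5-/- SOD1-G93A mice. The 3 Plekhg5-/- SOD1-G93A libraries were above the 3 Plekhg5+/+ SOD1-G93A libraries, while the highest value of all came from the third Plekhg5-/- mouse. Pik3c3 had a log2 fold change of 0.12 ± 0.07 (SE, adjusted p = 0.622, edgeR) for loss of Plekhg5 in SOD1-G93A mice, or 0.054 with a correction for exon length. All 6 genes had a positive log2 fold change in this comparison, from 0.03 to 0.12, and adjusted p values from 0.622 to 0.921. In the other 3 comparisons of genotypes the 6 genes had log2 fold changes between -0.11 and 0.10.

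The 6 genes that recognise PI3P or supply lipid (Wipi1, Wipi2, Wdr45, Atg2a, Atg2b and Atg9a) likewise gave 0 calls in each comparison. Wipi1 had 26.3, 26.8 and 25.7 CPM in Plekhg5+/+, 31.0, 25.3 and 29.3 in Plekhg5-/-, 30.5, 30.6 and 29.5 in Plekhg5+/+ SOD1-G93A and 28.8, 25.9 and 29.1 in Plekhg5-/- SOD1-G93A mice. The 3 Plekhg5+/+ SOD1-G93A libraries were above the 3 Plekhg5+/+ libraries, although the highest value of the 12 was that of the first Plekhg5-/- mouse. Wipi1 had a log2 fold change of 0.20 ± 0.08 (SE, adjusted p = 0.189, edgeR) for SOD1-G93A in mice with Plekhg5. Its interaction had a log2 fold change of -0.23 ± 0.11 (SE, adjusted p = 0.555, edgeR). Wdr45 (WIPI4), the gene of an X-linked neurodegeneration with iron accumulation, was at 33.4, 32.2 and 31.3 CPM in Plekhg5+/+, 38.2, 33.5 and 33.0 in Plekhg5-/-, 31.1, 31.2 and 34.3 in Plekhg5+/+ SOD1-G93A and 33.2, 33.7 and 31.9 in Plekhg5-/- SOD1-G93A mice. The first Plekhg5-/- library was the highest, and the groups overlapped in each comparison. Its log2 fold changes were 0.11 for loss of Plekhg5 and -0.08 for SOD1-G93A without Plekhg5, with adjusted p values of 0.976 and 0.950 (edgeR), and without the first Plekhg5-/- library Wdr45 was at 0.042 and -0.022. Atg9a, a transmembrane protein whose vesicles seed the growing sac, was at 114, 123 and 117 CPM in Plekhg5+/+, 109, 116 and 116 in Plekhg5-/-, 108.5, 118 and 101 in Plekhg5+/+ SOD1-G93A and 119.6, 120.2 and 111 in Plekhg5-/- SOD1-G93A mice. The third Plekhg5+/+ SOD1-G93A library was again the lowest. Atg9a had a log2 fold change of 0.15 ± 0.09 (SE, adjusted p = 0.611, edgeR) in the interaction, or 0.10 without this library.

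The Atg4 proteases trim Atg8 proteins before conjugation and release them from membranes later, and 0 of the 4 genes passed in any comparison. Atg4d had 35.9, 33.4 and 32.7 CPM in Plekhg5+/+, 30.5, 30.9 and 29.0 in Plekhg5-/-, 27.8, 31.0 and 32.4 in Plekhg5+/+ SOD1-G93A and 27.9, 28.3 and 29.7 in Plekhg5-/- SOD1-G93A mice. All 3 Plekhg5+/+ libraries were above the libraries of Plekhg5-/- and of Plekhg5+/+ SOD1-G93A mice. Atg4d had a log2 fold change of -0.16 ± 0.07 (SE, adjusted p = 0.232, edgeR) for SOD1-G93A in mice with Plekhg5 and a log2 fold change of -0.18 ± 0.07 (SE, adjusted p = 0.929, edgeR) for loss of Plekhg5 without SOD1-G93A. Both values are relative to the same 3 Plekhg5+/+ libraries, so that they are not independent of each other. Atg4a, with at most 274 counts in a library the rarest of the 42 transcripts, had libraries between 5.87 and 8.16 CPM, and Atg4b and Atg4c stayed within 1.13 and 1.21 times their lowest library.

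Atg7 activates the Atg8 and Atg12 proteins, Atg3 and Atg10 pass them on, and Atg12, joined to Atg5 and bound to Atg16l1, directs Atg8 proteins to the membrane. None of these 6 genes passed in any of the 5 comparisons (adjusted p from 0.187 upwards, edgeR), while 2 of them, Atg12 and Atg7, were under an unadjusted p of 0.05 for SOD1-G93A in mice with Plekhg5. Atg12 was at 59.5, 58.9 and 56.2 CPM in Plekhg5+/+, 57.7, 52.4 and 54.5 in Plekhg5-/-, 52.1, 53.2 and 52.1 in Plekhg5+/+ SOD1-G93A and 52.1, 53.0 and 56.9 in Plekhg5-/- SOD1-G93A mice. The Plekhg5+/+ SOD1-G93A libraries were all below the Plekhg5+/+ libraries, and they overlapped with the Plekhg5-/- SOD1-G93A ones. Atg12 had a log2 fold change of -0.15 ± 0.06 (SE, adjusted p = 0.187, edgeR). Atg7 had 21.6, 24.6 and 25.6 CPM in Plekhg5+/+, 29.1, 26.6 and 26.0 in Plekhg5-/-, 28.4, 27.3 and 25.5 in Plekhg5+/+ SOD1-G93A and 27.2, 28.02 and 26.8 in Plekhg5-/- SOD1-G93A mice. The first Plekhg5+/+ library was the lowest and the first Plekhg5-/- library the highest of the 12. Atg7 had a log2 fold change of 0.19 ± 0.08 (SE, adjusted p = 0.929, edgeR) for loss of Plekhg5 without SOD1-G93A and a log2 fold change of 0.18 ± 0.08 (SE, adjusted p = 0.248, edgeR) for SOD1-G93A in mice with Plekhg5. With the 3 libraries that stood apart left out, the log2 fold change for loss of Plekhg5 was 0.06 (adjusted p = 0.999, edgeR), and without the first Plekhg5+/+ library alone it was 0.12. Atg16l1 was at 39.9, 44.0 and 42.4 CPM in Plekhg5+/+, 40.8, 40.9 and 38.8 in Plekhg5-/-, 37.6, 38.7 and 40.9 in Plekhg5+/+ SOD1-G93A and 37.2, 38.1 and 37.1 in Plekhg5-/- SOD1-G93A mice. The 3 Plekhg5-/- SOD1-G93A libraries were below the 3 Plekhg5-/- libraries. Atg16l1 had a log2 fold change of -0.10 ± 0.06 (SE, adjusted p = 0.950, edgeR) in this comparison, the smallest p of the 42 genes there. Atg5 had 38.5, 34.8 and 34.1 CPM in Plekhg5+/+, 38.2, 34.1 and 32.2 in Plekhg5-/-, 32.6, 34.3 and 35.7 in Plekhg5+/+ SOD1-G93A and 32.6, 32.9 and 32.4 in Plekhg5-/- SOD1-G93A mice. The first Plekhg5+/+ and the first Plekhg5-/- library were the highest. Atg5 had a log2 fold change of -0.09 ± 0.07 (SE, adjusted p = 0.950, edgeR) for SOD1-G93A without Plekhg5. Without the first Plekhg5-/- library this value was -0.030, and without the third -0.15.

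The promoters of the 42 genes were searched for the CLEAR motif TCACGTGA, which the autophagy and lysosome regulator Tfeb binds, for its core CACGTG (the E-box), and for TGACNNNGC, the core of the antioxidant response element bound by Nrf2, on both strands. RefSeq promoter windows of GRCm38.p6, from 250 bases before to 50 bases after the start, were matched for 35 of the 42 genes. Of all 27025 genes with a window, 1.12% held TCACGTGA, 8.09% the E-box and 14.0% TGACNNNGC in at least 1 window. Among the matched genes, TCACGTGA was in the window of 1 (Atg3), the E-box in those of 5 (Atg14, Atg3, Atg5, Atg7 and Tbk1) and TGACNNNGC in those of 4 (Atg13, Map1lc3b, Tax1bp1 and Ulk2), and since every CLEAR motif holds an E-box, Atg3 counts under both. The window of Atg3 is shown as the only one among them with the whole CLEAR motif. It lies at chr16:45158579-45158878 on the plus strand, and capitals mark the E-box and, after it, the CLEAR motif.
Atg3: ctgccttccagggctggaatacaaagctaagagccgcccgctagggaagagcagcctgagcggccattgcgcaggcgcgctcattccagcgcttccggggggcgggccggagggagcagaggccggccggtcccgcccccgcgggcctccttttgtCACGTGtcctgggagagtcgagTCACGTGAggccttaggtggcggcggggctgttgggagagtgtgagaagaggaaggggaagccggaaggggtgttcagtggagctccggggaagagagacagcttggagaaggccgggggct
Atg3 transcripts had log2 fold changes between -0.07 and 0.03 in the 4 comparisons of genotypes, and 0 of them passed the test. A match of letters is a description of the window and does not show that a factor binds there.

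The 5 Atg8 genes gave 0 calls in any comparison. Map1lc3a and Map1lc3b encode LC3 proteins, and Gabarap, Gabarapl1 and Gabarapl2 their relatives. Map1lc3b, the gene of the usual LC3 marker protein, was at 250.8, 230.0 and 234 CPM in Plekhg5+/+, 272, 228 and 228 in Plekhg5-/-, 229.6, 249 and 256 in Plekhg5+/+ SOD1-G93A and 238, 235 and 244 in Plekhg5-/- SOD1-G93A mice. Map1lc3a was at 127, 107 and 109.6 CPM in Plekhg5+/+, 129, 111 and 106 in Plekhg5-/-, 106, 112 and 131 in Plekhg5+/+ SOD1-G93A and 113, 105 and 109.8 in Plekhg5-/- SOD1-G93A mice. Each was highest in one of the 3 libraries that stood apart, and the groups overlapped in each comparison. Gabarap was at 155, 128 and 129 CPM in Plekhg5+/+, 162, 137 and 130.2 in Plekhg5-/-, 149, 145 and 168 in Plekhg5+/+ SOD1-G93A and 139, 136 and 143 in Plekhg5-/- SOD1-G93A mice. The 3 Plekhg5-/- SOD1-G93A libraries were below the 3 Plekhg5+/+ SOD1-G93A libraries, and its log2 fold change there was -0.15 ± 0.09 (SE), with an adjusted p of 0.649 (edgeR). Gabarapl1, the most abundant of the 42 transcripts per length, was at 501, 456 and 440.3 CPM in Plekhg5+/+, 514, 451 and 448 in Plekhg5-/-, 449, 457 and 483 in Plekhg5+/+ SOD1-G93A and 459.5, 467 and 465 in Plekhg5-/- SOD1-G93A mice. Gabarapl2 was at 114, 93.2 and 101 CPM in Plekhg5+/+, 121, 95.1 and 95.7 in Plekhg5-/-, 88.7, 99.96 and 107 in Plekhg5+/+ SOD1-G93A and 95.4, 94.3 and 96.0 in Plekhg5-/- SOD1-G93A mice. The first Plekhg5-/- library had the highest value of both, and the groups overlapped in each comparison. For SOD1-G93A without Plekhg5, all 5 genes had negative log2 fold changes, from -0.13 to -0.02, and for loss of Plekhg5 without SOD1-G93A all 5 were positive, from 0.01 to 0.06. Both values are relative to, or come from, the 3 Plekhg5-/- libraries, the first of which was the highest of its group for each of the 5 genes. With the 3 libraries that stood apart left out, Gabarapl2 had a log2 fold change of -0.01 for SOD1-G93A without Plekhg5, in place of -0.13, as it did without the first Plekhg5-/- library alone. Map1lc3b and Gabarapl2 had counts that were not whole numbers in all 12 libraries, as did 22 of the 42 genes in at least 1 library. A read that matched several places or several overlapping genes was split between them, so these levels are less certain than whole counts.

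The cargo receptors Sqstm1 (p62), Optn, Nbr1, Calcoco1 and Tax1bp1 link ubiquitinated or other cargo to Atg8 proteins, and the kinase Tbk1 phosphorylates several of them. Of these 6 genes, 0 passed the test in any comparison, with Tbk1 nearest to it. Tbk1 had 48.1, 49.7 and 50.3 CPM in Plekhg5+/+, 45.4, 48.5 and 50.1 in Plekhg5-/-, 43.1, 41.8 and 42.4 in Plekhg5+/+ SOD1-G93A and 46.8, 47.9 and 45.9 in Plekhg5-/- SOD1-G93A mice. The 3 Plekhg5+/+ SOD1-G93A libraries were the lowest 3 of the 12, below every library of each other genotype. The group means were 49.4 ± 1.13 CPM (SD, n = 3) in Plekhg5+/+ and 42.4 ± 0.682 in Plekhg5+/+ SOD1-G93A mice. Tbk1 had a log2 fold change of -0.22 ± 0.05 (SE, adjusted p = 0.0558, edgeR) for SOD1-G93A in mice with Plekhg5, and a log2 fold change of 0.14 ± 0.05 (SE, adjusted p = 0.517, edgeR) for loss of Plekhg5 in SOD1-G93A mice. Its interaction had a log2 fold change of 0.18 ± 0.08 (SE, adjusted p = 0.511, edgeR). The call for SOD1-G93A depended on the tool: DESeq2 without a prior gave an adjusted p of 0.00592 at a log2 fold change of -0.23. The adjustment for exon length gave 0.0372, and over the alternatives the adjusted p ranged from 0.00586 to 0.183, with 5 of 22 under the threshold, while the log2 fold change stayed between -0.24 and -0.21. Neuronal markers, of which all 10 had a negative log2 fold change in the same comparison (median -0.15, 0 called by edgeR, and Nefl, Nefm and Nefh called lower by DESeq2), summed to between 7700 and 9375 CPM in Plekhg5+/+ SOD1-G93A and between 10131 and 10166 CPM in Plekhg5+/+ libraries. Of the 10 motoneuron markers, 9 were negative (median -0.25), with Chodl called lower by edgeR (log2 fold change -0.83) and Chodl and Chat by DESeq2, and their sum lay between 560.5 and 683 CPM against 671 and 707 CPM. For loss of Plekhg5 in SOD1-G93A mice, all 10 neuronal, all 10 motoneuron and all 10 endothelial markers were positive (medians 0.15, 0.23 and 0.47). In that comparison 7 of 10 astrocyte, 9 of 10 oligodendrocyte and all 12 microglial markers were negative. There, 0 of these markers were called by edgeR, and DESeq2 without a prior called Esam higher and Trem2 lower. The part of any of these cell types in the Tbk1 values was not tested. In whole tissue a different number of cells of a type cannot be told apart from a different amount of RNA per cell.

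The promoter window of Tbk1 is shown because Tbk1 was the gene nearest to the threshold. It lies on the minus strand of GRCm38.p6 at chr10:121586745-121587044, the gene itself spans chromosome 10 from 121546455 to 121586794, and capitals mark the E-box.
Tbk1: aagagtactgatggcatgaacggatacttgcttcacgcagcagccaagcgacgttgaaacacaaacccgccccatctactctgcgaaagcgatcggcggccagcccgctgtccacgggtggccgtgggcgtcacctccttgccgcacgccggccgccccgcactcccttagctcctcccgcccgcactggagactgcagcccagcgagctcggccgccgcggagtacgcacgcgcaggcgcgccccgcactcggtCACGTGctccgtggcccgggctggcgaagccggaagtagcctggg
The match begins at base 6, counted from 1 at the transcription start.

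Sqstm1 is a receptor that is itself degraded by autophagy. Sqstm1 was at 486, 436 and 412 CPM in Plekhg5+/+, 494, 427 and 425 in Plekhg5-/-, 458, 427 and 469 in Plekhg5+/+ SOD1-G93A and 435, 435 and 434 in Plekhg5-/- SOD1-G93A mice. The first Plekhg5+/+ and the first Plekhg5-/- libraries were highest, and the groups overlapped in each comparison. Optn was at 30.4, 29.8 and 34.4 CPM in Plekhg5+/+, 35.2, 33.5 and 32.9 in Plekhg5-/-, 34.0, 32.7 and 32.1 in Plekhg5+/+ SOD1-G93A and 32.9, 31.2 and 32.5 in Plekhg5-/- SOD1-G93A mice. The lowest and the next lowest values were those of 2 Plekhg5+/+ mice, and the groups overlapped in each comparison. Sqstm1 and Optn had log2 fold changes between -0.05 and 0.02 and between -0.07 and 0.10 in the 4 comparisons of genotypes. Tax1bp1 had lower values in all 3 Plekhg5+/+ SOD1-G93A than in all 3 Plekhg5+/+ libraries (178, 181 and 175 against 192, 187 and 186 CPM), with an adjusted p of 0.454 (edgeR). Nbr1 and Calcoco1 stayed within 1.12 and 1.11 times their lowest library.

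The fusion genes were Stx17, Snap29 and Vamp8, which form the SNARE complex between autophagosome and lysosome, and the tether Epg5. Vamp8 also serves in the fusion of endosomes and in regulated secretion. Vamp8 had 9.83, 8.34 and 9.28 CPM in Plekhg5+/+, 10.2, 8.35 and 9.21 in Plekhg5-/-, 14.9, 11.6 and 13.9 in Plekhg5+/+ SOD1-G93A and 10.1, 9.78 and 11.1 in Plekhg5-/- SOD1-G93A mice. Each Plekhg5+/+ SOD1-G93A library was above each library of the 3 other genotypes, and the Plekhg5-/- SOD1-G93A libraries overlapped with the Plekhg5-/- ones. Group means were 9.15 ± 0.753 CPM (SD, n = 3) in Plekhg5+/+, 9.24 ± 0.904 in Plekhg5-/-, 13.5 ± 1.73 in Plekhg5+/+ SOD1-G93A and 10.3 ± 0.669 in Plekhg5-/- SOD1-G93A mice. For SOD1-G93A in mice with Plekhg5, Vamp8 rose 1.47-fold (log2 fold change 0.56 ± 0.11, SE, adjusted p = 0.0260, edgeR). Without Plekhg5 it had a log2 fold change of 0.16 ± 0.11 (SE, adjusted p = 0.950, edgeR), and the difference between these effects had a log2 fold change of -0.40 ± 0.16 (SE, adjusted p = 0.492, edgeR). The value without Plekhg5 was 0.090 without the second Plekhg5-/- library, 0.098 without the third Plekhg5-/- SOD1-G93A library and 0.24 with a correction for exon length, which put the difference at -0.23. Loss of Plekhg5 in SOD1-G93A mice gave a log2 fold change of -0.39 ± 0.11 (SE, adjusted p = 0.416, edgeR). The rise with SOD1-G93A is not shown to differ between mice with and without Plekhg5.

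The call of Vamp8 rested on few libraries. It was under the threshold in 15 of 22 alternatives, with adjusted p values from 0.00100 to 0.131 and log2 fold changes from 0.43 to 0.64. It was lost with only the 2 genotypes in the fit (adjusted p = 0.0974), without the first, the second or the third Plekhg5+/+ library (0.0703, 0.131 and 0.0516) and without the first or the third Plekhg5+/+ SOD1-G93A library (0.105 and 0.0512), all in edgeR. Vamp8 has the shortest exons of the 42 genes, 786 bases in sum. With a correction for exon length its log2 fold change was 0.48 (adjusted p = 0.0268), and without the 3 libraries that stood apart it was 0.58 (adjusted p = 0.0590).

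Microglial markers, like Vamp8, were highest in the Plekhg5+/+ SOD1-G93A libraries. The 12 microglial markers summed to between 517 and 602 CPM in Plekhg5+/+, 569 and 784 in Plekhg5-/-, 992 and 1866 in Plekhg5+/+ SOD1-G93A and 737 and 822 in Plekhg5-/- SOD1-G93A libraries. For SOD1-G93A in mice with Plekhg5, 11 of the 12 rose (edgeR), with a median log2 fold change of 1.25, and for loss of Plekhg5 in SOD1-G93A mice all 12 were negative (median -0.75), with 0 called and 11 at an unadjusted p under 0.05. The first Plekhg5+/+ SOD1-G93A library was the highest of the 12 for both Vamp8 and the microglial sum, and the lowest Plekhg5+/+ SOD1-G93A library was the second for both. The third was nearer the first for Vamp8 (13.9 CPM) and nearer the second for the microglial sum (1060 CPM). Of the 10 astrocyte markers, 2 (Gfap and Sox9) rose in the same comparison by edgeR's test, with log2 fold changes of 1.23 and 0.81, and 3 (also Aqp4) by DESeq2's. The other astrocyte markers did not pass in either tool, 2 of the 10 were negative and the median of the list was 0.11. Of the 10 oligodendrocyte markers, 1 (Opalin) was called higher by both tools, with a log2 fold change of 0.76 (adjusted p = 0.0165, edgeR). In that list 3 of the 10 were negative and the median was 0.09. The part of these cells in the Vamp8 values was not tested.

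**Figure D3:**
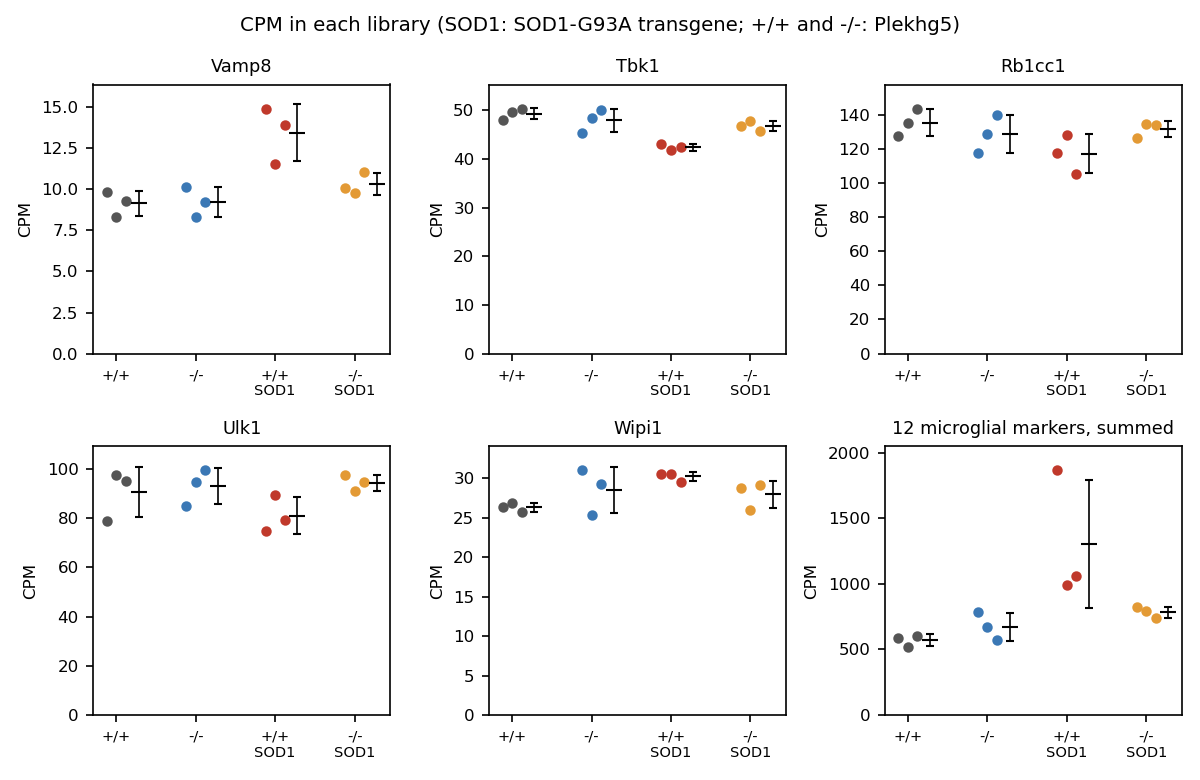
CPM in each library for Vamp8, Tbk1, Rb1cc1, Ulk1, Wipi1 and the sum of 12 microglial markers: coloured points are the 3 mice of a genotype, and the black bar with whiskers gives mean ± SD. The Plekhg5+/+ SOD1-G93A libraries of Vamp8 (11.6 to 14.9 CPM) lie above all others, as do those of the microglial markers, and the Tbk1 libraries of this genotype lie below all others.

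The promoter window of Vamp8, the only gene of the 42 called by edgeR, lies on the minus strand of GRCm38.p6 at chr6:72390618-72390917. The gene spans chromosome 6 from 72385221 to 72390667. None of the 3 motifs was found in it, so it has no capitals.
Vamp8: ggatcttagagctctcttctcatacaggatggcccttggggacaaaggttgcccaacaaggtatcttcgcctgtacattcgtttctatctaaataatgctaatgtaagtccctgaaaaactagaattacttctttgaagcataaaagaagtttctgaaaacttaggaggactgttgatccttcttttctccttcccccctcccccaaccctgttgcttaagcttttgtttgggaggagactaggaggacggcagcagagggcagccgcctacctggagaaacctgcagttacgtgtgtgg
The absence of these letters from the window says nothing about the factors themselves.

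The other fusion genes gave 0 calls in any comparison. Stx17, the SNARE on the autophagosome, was at 32.4, 36.5 and 42.02 CPM in Plekhg5+/+, 39.1, 41.1 and 43.6 in Plekhg5-/-, 39.9, 43.6 and 37.9 in Plekhg5+/+ SOD1-G93A and 39.8, 43.2 and 42.6 in Plekhg5-/- SOD1-G93A mice. The first Plekhg5+/+ library was the lowest of the 12. Stx17 had a log2 fold change of 0.16 ± 0.09 (SE, adjusted p = 0.968, edgeR) for loss of Plekhg5 without SOD1-G93A. This value was 0.071 without the first and 0.25 without the third Plekhg5+/+ library. Snap29 had 41.0, 40.9 and 37.1 CPM in Plekhg5+/+, 38.2, 33.3 and 36.8 in Plekhg5-/-, 39.1, 34.8 and 39.9 in Plekhg5+/+ SOD1-G93A and 32.8, 34.5 and 36.9 in Plekhg5-/- SOD1-G93A mice. The lowest values were found in single mice of both Plekhg5-/- genotypes, and the groups overlapped in each comparison. Snap29 had a log2 fold change of -0.14 ± 0.08 (SE, adjusted p = 0.968, edgeR) for loss of Plekhg5 without SOD1-G93A, and a log2 fold change of -0.13 ± 0.08 (SE, adjusted p = 0.630, edgeR) for its loss in SOD1-G93A mice. Without the second Plekhg5-/- library the first of these values was -0.082. Epg5, with the first Plekhg5+/+ library at 54.2 CPM the lowest of 12, had log2 fold changes between -0.08 and 0.13.

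Transcript length ordered the differences between mice within each genotype except Plekhg5-/- SOD1-G93A. In the libraries that stood apart, the deviation from the genotype mean correlated with exon length across the 42 genes with a Spearman coefficient of -0.73, -0.78 and -0.75. In the other Plekhg5+/+, Plekhg5-/- and Plekhg5+/+ SOD1-G93A libraries the coefficient was positive, from 0.28 to 0.73, and in the Plekhg5-/- SOD1-G93A libraries it lay between -0.19 and 0.17. These coefficients are across genes of one library and are a description. The deviations of the 3 libraries of a genotype are tied to their own mean. The positive coefficients are therefore partly set by the negative one in the same genotype. The 10 shortest genes, with exons of up to 2366 bases, include all Atg8 genes except Map1lc3b, and had median deviations of 0.12, 0.14 and 0.08 on the log2 scale in the 3 libraries. The 10 longest, with 5290 bases or more, had median deviations of -0.14, -0.12 and -0.09. Of these, Rb1cc1, Ulk1, Ulk2, Ambra1, Atg2a, Atg2b, Epg5 and Stx17 were below their genotype mean in each of the 3. Atg4c, the longest, was above it in the first Plekhg5+/+ (50.6 against 48.6 CPM) and first Plekhg5-/- library (53.7 against 51.5 CPM). Pik3c3 was above it in the first Plekhg5+/+ library (68.6 against 65.6 CPM). All 5 Atg8 genes were above their genotype mean in each of the 3. No label gives a reason for this split, and its part in the values was not tested beyond the length correction and the omission of these libraries.

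**Figure D4:**
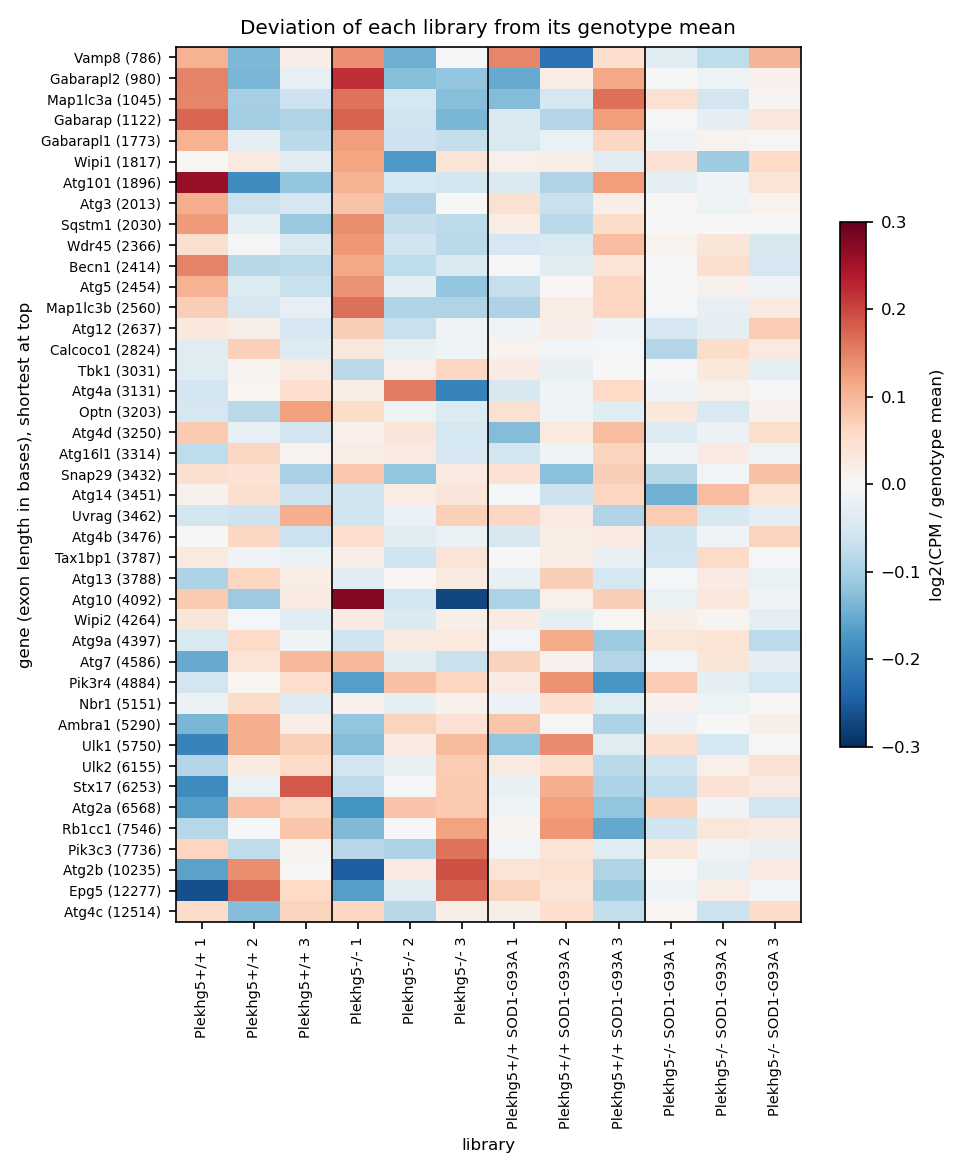
Log2 of CPM over the genotype mean for the 42 genes (rows, shortest exons at the top) in the 12 libraries (columns, grouped by genotype), from blue (lower) to red (higher). The first Plekhg5+/+, the first Plekhg5-/- and the third Plekhg5+/+ SOD1-G93A columns run largely from red at the top to blue at the bottom. The last row, Atg4c, is an exception in the first Plekhg5+/+ and first Plekhg5-/- columns. The 3 Plekhg5-/- SOD1-G93A columns stay near 0.

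Genes around the core machinery were described by lists. Of 15 genes of autophagy signalling and transcription, among them Mtor, Tfeb and the Foxo factors, 15 were tested and 0 were called in any of the 5 comparisons by edgeR. In the other 4 comparisons 0 to 2 of them were at an unadjusted p under 0.05. For SOD1-G93A in mice with Plekhg5 there were 4, against 18.2% of all genes. DESeq2 called 2 of the 4 in that comparison, both lower: Foxo3, a transcription factor that activates autophagy genes, with a log2 fold change of -0.26 ± 0.08 (SE, adjusted p = 0.0986, edgeR), and Zkscan3, a repressor of such genes, with -0.41 ± 0.11 (SE, adjusted p = 0.0676, edgeR). The other 2 were positive and not called by either tool: Tfeb at 0.19 ± 0.07 (SE, adjusted p = 0.193, edgeR) and Tfe3 at 0.17 ± 0.08 (SE, adjusted p = 0.273, edgeR). For loss of Plekhg5 in SOD1-G93A mice, Foxo3 was at 0.19 and Zkscan3 at 0.01, without a call in either tool. Of 9 other initiation, lipid transfer and conjugation genes, 0 were called by edgeR. At an unadjusted p under 0.05 there was 1 for SOD1-G93A in mice with Plekhg5, 1 for loss of Plekhg5 in SOD1-G93A mice and 1 in the interaction. In the first comparison this was Sh3glb1 (Bif-1), a partner of Uvrag and Becn1, with a log2 fold change of 0.18 ± 0.06 (SE, adjusted p = 0.0987, edgeR), which DESeq2 called higher. In the second it was again Sh3glb1, at -0.18 ± 0.06 (SE, adjusted p = 0.439, edgeR), which DESeq2 did not call. Of 18 further receptors of selective autophagy, such as Bnip3 and the reticulon receptor Retreg1, 17 were tested and 0 called by edgeR or DESeq2, with 1 at an unadjusted p under 0.05 in each comparison. Of 11 further genes of fusion, which include the HOPS tethering subunits and Rab7, 0 were called by edgeR or DESeq2, with 1 at an unadjusted p under 0.05 for SOD1-G93A in mice with Plekhg5 and 1 in the interaction. Across these lists the median log2 fold change lay between -0.10 and 0.04 in the 4 comparisons of genotypes. Among Plekhg5 and its target Rab26, Plekhg5 was called for its loss in both backgrounds, and Rab26 was not called in any comparison by edgeR or DESeq2. Rab26 was at 6.67, 6.04 and 6.49 CPM in Plekhg5+/+, 6.41, 6.72 and 6.40 in Plekhg5-/-, 6.03, 4.95 and 5.67 in Plekhg5+/+ SOD1-G93A and 5.80, 5.37 and 4.58 in Plekhg5-/- SOD1-G93A libraries. The transgenic libraries were below the non-transgenic ones with and without Plekhg5, with log2 fold changes of -0.21 ± 0.11 and -0.31 ± 0.11 (SE) and adjusted p values of 0.372 and 0.813 (edgeR).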

How the data were processed

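RNA from the whole spinal cord of 12 mice was enriched for polyadenylated transcripts and sequenced from stranded libraries as single reads. The authors trimmed the reads with Cutadapt version 2.4, aligned them with STAR version 2.7.2b to GRCm38.p6 plus a human SOD1 cDNA sequence, and obtained stranded exon counts with featureCounts version 1.6.4. The deposited values are expected counts per gene, without normalization, in which a read with several matches was split into fractions. Each of the 12 count columns was matched to a mouse by its name, and 0 columns remained without a sample.

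For the tests, counts were rounded, genes with low counts removed with filterByExpr, and library sizes normalized with TMM. Robust quasi-likelihood models were fitted to the 4 genotypes together (edgeR version 4.0.16, limma version 3.58.1, R version 4.3.3), without a covariate, and p-values were adjusted over all genes tested within each comparison (Benjamini-Hochberg, threshold 0.05). CPM were TMM-normalized, TPM used the combined exon length in the deposited table, and log2 values for the pairing and length checks had a prior count of 2. The log2 fold change of the interaction is the SOD1-G93A effect without Plekhg5 minus that with Plekhg5. Standard errors and 95% intervals come from the fit.

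The 42 genes and the lists around them were chosen with earlier results of these data known. Values in every library are given for each gene called in any comparison, for the 5 with the smallest p in each comparison, and for the Atg8 genes, Sqstm1, Optn and Tbk1, while genes of other lists are named when called. Epg5, Tax1bp1, Tfeb and Tfe3 values were added after they were seen. The same comparisons were also made with DESeq2 version 1.42.0 (a prior on fold changes on or off), with its size factors in edgeR, 2 other filters, 2 genotypes only, the replicate number or Y-linked transcripts (over 1000 counts) as a term, and each library left out. A per-library curve of deviation against exon length and the omission of 3 libraries together were added after seeing the data. The models were tested on simulated data. Each library came from a different mouse and counted as a replicate. Libraries of a genotype differed by more than counting noise (chi-square per degree of freedom from 6.50 to 32.9), which does not separate differences between mice from technical ones. Promoter windows came from RefSeq (GRCm38.p6), and plots were made with matplotlib version 3.10.9 in Python version 3.11.15.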

Additional observations from a re-analysis of the deposited data

How the results depend on the processing

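Over the alternatives run, direction and call were followed only for the 5 genes with the smallest p in each comparison, not for every gene named. Of these log2 fold changes, 0 changed direction. The call differed 5 times for Tbk1 (gained) and 7 times for Vamp8 (lost), beside 533 values with the same call. Each time the comparison was SOD1-G93A in mice with Plekhg5. In that comparison 1 of the 42 genes and 498 of all genes were called. DESeq2 called 2 of the 42 (Vamp8 and Tbk1) without and with a prior, and 1162 and 1199 of all genes. It was run on every gene with a count, without the filter, and no share of genes tested is given for it. DESeq2's size factors in edgeR also gave 2, without a count over all genes here. These 2 of the 42 are therefore not set against a background. The exon length curve gave 2 and 829. The fit of only 2 genotypes gave 0 and 3. The omission of the 3 libraries high in short transcripts gave 0 and 246, with a median of -0.025 for the 42. The last 2 alternatives leave fewer libraries. For loss of Plekhg5 with SOD1-G93A, DESeq2 called 72 (without prior) and 112 (with prior) of all genes and the fit of 2 genotypes 11, in place of 7. Loss of Plekhg5 without SOD1-G93A gave 34 and 32 in DESeq2, in place of 6, and a median of -0.011 for the 42 genes without the 3 libraries. SOD1-G93A without Plekhg5 gave 45 and 41 in DESeq2, 20 with 2 genotypes and 0 with at least 10 counts in every library, a filter that removes the transgene, in place of 1. The interaction gave 95 and 114 in DESeq2, 1 without a filter and 1 without the 3 libraries (median 0.029), in place of 0. For all of these other differences the cause was not tested.

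With each library left out in turn, the 42 genes gave 0 to 2 calls for SOD1-G93A with Plekhg5, and 0 in each other comparison. Calls over all genes ranged from 2 (without the second Plekhg5+/+ library) to 771 for SOD1-G93A with Plekhg5, from 4 to 8 for loss of Plekhg5 with SOD1-G93A, from 5 to 59 without it (59 without the third Plekhg5+/+ library), from 1 to 9 for SOD1-G93A without Plekhg5 (9 without the first Plekhg5+/+ SOD1-G93A library) and from 0 to 40 for the interaction (40 without the third Plekhg5+/+ library). The medians of the 42 ranged from -0.063 to -0.019, from 0.0080 to 0.048, from -0.013 to 0.030, from -0.028 to -0.0063 and from 0.0045 to 0.044 in the same order. Replicate numbers belong to different mice, and deviations of same-numbered libraries correlated from -0.19 to 0.43 (7 of 18 over 0.1), so they do not pair the samples. A replicate block gave 1 called gene of the 42 and 631 of all genes for SOD1-G93A with Plekhg5, and 7 of the 18 pairs correlated best with their own number. With 3 mice per genotype, the widest 95% intervals of the 42 genes reached ±0.26 on the log2 scale in the 4 comparisons of genotypes and ±0.37 in the interaction. The median half-width was 0.16 in each of the 4 comparisons and 0.23 in the interaction. These intervals are not adjusted for the number of genes, so they do not give the smallest difference that the test could call.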
